A study of Homo sapiens with 29 samples.

Results

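Open chromatin on human chromosome 19 was set beside that on chromosome 18 in 22Rv1, a human prostate cancer cell line. Accessibility was measured by ATAC-seq, in which a transposase inserts sequencing adapters into DNA that is free of nucleosomes, and each of 29 libraries gave a separate list of peaks (stretches where reads pile up above the local background). Peaks of all 29 lists were merged wherever they overlapped or touched, which gave 166696 regions on build hg19. All 5059 regions on chromosome 19 and all 4118 on chromosome 18 were taken, 9177 in all, and none was filtered on its values. A library held a region when at least 1 bp of it lay under a peak of that library.

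The parental libraries comprised 5 groups of 3: the vehicle DMSO (0.1%), the stereoprobe WX-02-23 at 20 µM, its stereoisomer WX-02-43 at 20 µM, and the splicing inhibitor pladienolide B (PladB), which binds SF3B1, at 10 nM and at 100 nM. The engineered libraries comprised 7 groups of 2, all from cells that stably expressed Y36C-PHF5A, a mutant of a spliceosome subunit, and that carried either WT-FOXA1 or C258A-FOXA1 under doxycycline (Dox) control. Cells of both engineered lines received Dox with DMSO, WX-02-23 at 20 µM or PladB at 100 nM, and WT-FOXA1 cells also DMSO without Dox. Treatment with compound lasted 3 h, and the engineered cells keep their own FOXA1 gene. The labels do not say whether replicates were separate cultures, so every p-value below measures only the spread between libraries. Names given to the peaks show that parental and engineered lists came from separate processing folders, so what separates parental from engineered lists cannot be told apart from that folder.

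Human chromosomes differ widely in how densely genes are packed. Chromosome 19 is gene-rich, carries large clusters of zinc finger genes and tends to lie in the interior of the nucleus, whereas chromosome 18 is gene-poor and tends to lie at the nuclear edge. Housekeeping promoters are open in most cell states, while distal enhancers open and close with the factors that bind them. FOXA1 is a pioneer factor that binds enhancer DNA within closed chromatin and is a main cofactor of the androgen receptor in prostate cells, and C258 is the cysteine of FOXA1 to which WX-02-23 binds.

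The label gene-rich against gene-poor held in the RefSeq annotation (assembly GRCh38.p14, used for names and counts only). It lists 1451 protein-coding genes on chromosome 19 and 270 on chromosome 18, a ratio of 5.37. Of 517 genes whose symbol starts with ZNF, the prefix of zinc finger proteins, 250 are on chromosome 19 and 9 on chromosome 18. The chromosomes were less alike in length: from the first to the last region, chromosome 19 spanned 58.87 Mb and chromosome 18 spanned 78.01 Mb, so densities below are per Mb of that span.

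Chromosome 19 was the densest of 24 chromosomes in merged regions and chromosome 18 was at place 18. Chromosome 19 held 85.9 regions per Mb and chromosome 18 held 52.8, a ratio of 1.63, and the next densest were chromosome 22 with 77.2 and chromosome 17 with 73.2. The ratio of gene numbers, 5.37, is not per Mb, and it was larger than the like ratio of region numbers, 1.23. Counting only 100 kb windows with at least 1 region gave 9.15 regions per window on chromosome 19 and 5.63 on chromosome 18. Regions covered 4.57% of the span of chromosome 19 and 2.20% of that of chromosome 18. The median gap between neighbouring regions was 6345.5 bp on chromosome 19 and 10233 bp on chromosome 18.

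In single libraries the contrast was larger than in the merged set. Peaks per Mb ranged from 48.7 to 65.6 on chromosome 19 and from 17.8 to 28.2 on chromosome 18, and the density was higher on chromosome 19 in 29 of 29 libraries. The ratio of densities was 2.44 ± 0.204 (SD, n = 29), with a range of 2.10 to 3.06. Parental DMSO lists held 3699, 3860 and 3706 peaks on chromosome 19, against 2014, 2188 and 2078 on chromosome 18. This sets 1 chromosome against 1 other, so the 29 libraries show how steady the contrast was and are not replicates of a chromosome.

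**Figure D1:**
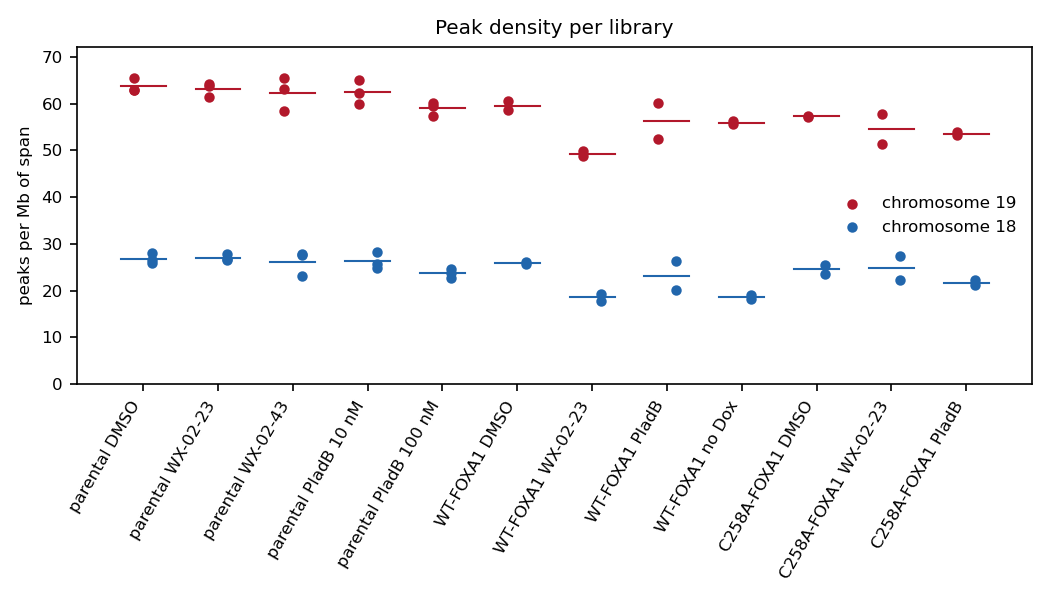
Peaks per Mb of span in each of the 29 libraries, by group, on chromosome 19 and chromosome 18; each point is 1 library and each line a group mean. In all 29 libraries the chromosome 19 point (48.7 to 65.6 peaks per Mb) lies above the chromosome 18 point (17.8 to 28.2).

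Regions were not spread evenly along either chromosome. Chromosome 19 had 60 windows of 1 Mb with a median of 88.5 regions (quartiles 54.5 and 113.5), and 23 of them (38.3%) held 100 regions or more. Chromosome 18 had 79 windows with a median of 53 regions (quartiles 42 and 61.5), and 1 of them (1.27%) reached 100. Windows with fewer than 50 regions made up 12 of 60 (20%) on chromosome 19 and 32 of 79 (40.5%) on chromosome 18. The quartile ranges of the window counts therefore overlapped between 54.5 and 61.5 regions.

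The densest window on chromosome 19 was chr19:1000001-2000000 with 163 regions, of which 69 were held by all 29 libraries. The densest on chromosome 18 was chr18:55000001-56000000 with 117 regions, of which 25 were held by all 29. The longest stretch without a region was chr19:24577500-27731878 (3.15 Mb) on chromosome 19 and chr18:15377352-18512777 (3.14 Mb) on chromosome 18. The next longest empty stretches were much shorter, chr19:27890307-28265339 (0.375 Mb) and chr18:14179582-14415806 (0.236 Mb). Positions are on hg19, and which genes they hold was not analysed here because no annotation of that build was used.

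**Figure D2:**
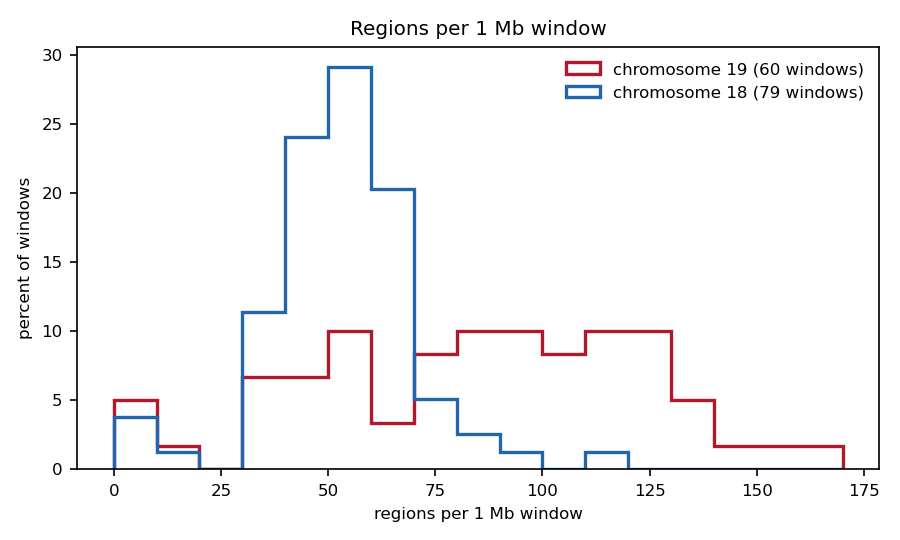
Histogram of the number of merged regions per 1 Mb window, as the percent of the 60 windows of chromosome 19 and of the 79 windows of chromosome 18. Chromosome 18 is bunched around its median of 53, while chromosome 19 is spread widely around 88.5 and has 38.3% of its windows at 100 or more.

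A much larger part of chromosome 19 was open in every library. Of its regions, 2005 (39.6%) were held by all 29 libraries, the highest share of 24 chromosomes, against 704 (17.1%) on chromosome 18, at place 21. Regions held by a single library numbered 611 (12.1%) on chromosome 19 and 743 (18.04%) on chromosome 18. The other 2443 and 2671 regions were held by 2 to 28 libraries, so the chromosomes were close in the number of regions of this variable class. These numbers are not per Mb, and chromosome 19 has the shorter span. A median region of chromosome 19 was held by 23 libraries and a median region of chromosome 18 by 9. Per 1 Mb window the median number of regions held by all 29 was 35.5 on chromosome 19 and 7 on chromosome 18.

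The same difference appeared when lists were compared in pairs. The Jaccard index is the number of bases covered by both lists over the bases covered by either. Its mean within groups was 0.768 ± 0.014 (SD, 22 pairs) on chromosome 19 and 0.673 ± 0.026 on chromosome 18. Over all 406 pairs it was 0.705 and 0.549, and it was higher on chromosome 19 in 406 of 406. Pairs share libraries and are not independent.

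Regions were also wider on chromosome 19, with a median of 417 bp (quartiles 268 and 719.5) against 338 bp (quartiles 237 and 514) on chromosome 18, places 1 and 21 of 24. Regions over 1000 bp numbered 603 (11.9%) on chromosome 19 and 177 (4.30%) on chromosome 18. Within a class of regions the order varied. Regions held by all 29 libraries were wider on chromosome 19, with a median of 789 bp against 720.5 bp on chromosome 18. Regions held by 2 to 28 libraries had medians of 325 and 342 bp, in the other order, and regions held by a single library 161 and 155 bp. In single libraries, before merging, the ratio of median peak widths was 1.17 to 1.25, higher on chromosome 19 in 29 of 29.

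The widest region held by all 29 libraries was of like size on both chromosomes: chr19:48901594-48903977 (2384 bp) and chr18:5294784-5297121 (2338 bp). Fold values are those the authors deposited, the reads at the summit plus 1 over the local background plus 1. The chromosome 19 region had folds of 7.62 to 11.0 with a median of 8.80 over 29 libraries, and 69 to 104 reads at its summit. The chromosome 18 region had folds of 6.12 to 8.84 with a median of 7.03, and 28 to 83 reads. The folds of these regions overlapped between libraries although most summits on chromosome 19 were taller.

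The regions of highest fold were also alike. At chr19:44860468-44861296 (829 bp) the fold was 17.3 to 21.2 with a median of 18.9, and at chr18:14132091-14132804 (714 bp) it was 18.2 to 23.6 with a median of 21.4. Summits there held 54 to 95 and 61 to 112 reads. At the second place, chr19:37663266-37664160 had folds of 17.0 to 22.0 and chr18:20493628-20494243 folds of 16.1 to 24.3. The strongest regions of both chromosomes overlapped in fold.

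Ranked by fold within each list (100 is the highest percentile), the chromosomes differed little. The median peak of chromosome 19 lay at percentile 51.9 and that of chromosome 18 at 49.1, as means over 29 libraries, places 2 and 20 of 24. In parental libraries the difference, chromosome 19 minus chromosome 18, was -0.446 ± 2.59 (SD, n = 15), with a range of -5.16 to 3.31, and it was below 0 in 8 of 15. In engineered libraries it was 6.22 ± 3.63 (SD, n = 14), with a range of 1.19 to 14.8, and it was below 0 in 0 of 14. Ranked by the authors' p-value in place of the fold, chromosome 19 was higher in 29 of 29 libraries, by 14.5 ± 1.26 percentile points in parental (SD, n = 15) and 22.0 ± 2.15 in engineered libraries (SD, n = 14). A rank by fold and a rank by p-value therefore placed chromosome 19 differently. With all lists cut to the length of the shortest by p-value, the fold percentile difference over 29 libraries was -2.47 in place of 2.77.

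The fold has a numerator and a denominator that can be read apart. For every peak the whole number of reads at the summit and the local background were recovered from the deposited fold and p-value. The median summit held 27 to 38 reads on chromosome 19 and 13 to 22 on chromosome 18, a ratio of 1.61 to 2.19 within libraries. The median local background was 2.46 to 4.80 reads per base on chromosome 19 and 0.825 to 2.06 on chromosome 18, a ratio of 1.82 to 3.01. Both were higher on chromosome 19 in 29 of 29 libraries. The fold divides one by the other, and its median was 7.47 ± 0.357 on chromosome 19 and 7.22 ± 0.310 on chromosome 18 (SD, n = 29). Relative to all peaks of the same list, background was 2.02 times the median on chromosome 19 and 0.771 times on chromosome 18.

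The peak caller uses the genome-wide background where the surroundings of a peak are not higher. On chromosome 19 this held for 2.65% to 6.64% of peaks and on chromosome 18 for 20.4% to 33.9%, with no overlap between chromosomes. Per library, the weakest called summit had 5 to 9 reads on chromosome 19 and 5 to 8 on chromosome 18. Because the background was higher there, a weak peak of a given summit height has a lower fold and a weaker p-value on chromosome 19 than on chromosome 18. How much of the difference in density and in gained and lost regions goes with this was not tested.

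**Figure D3:**
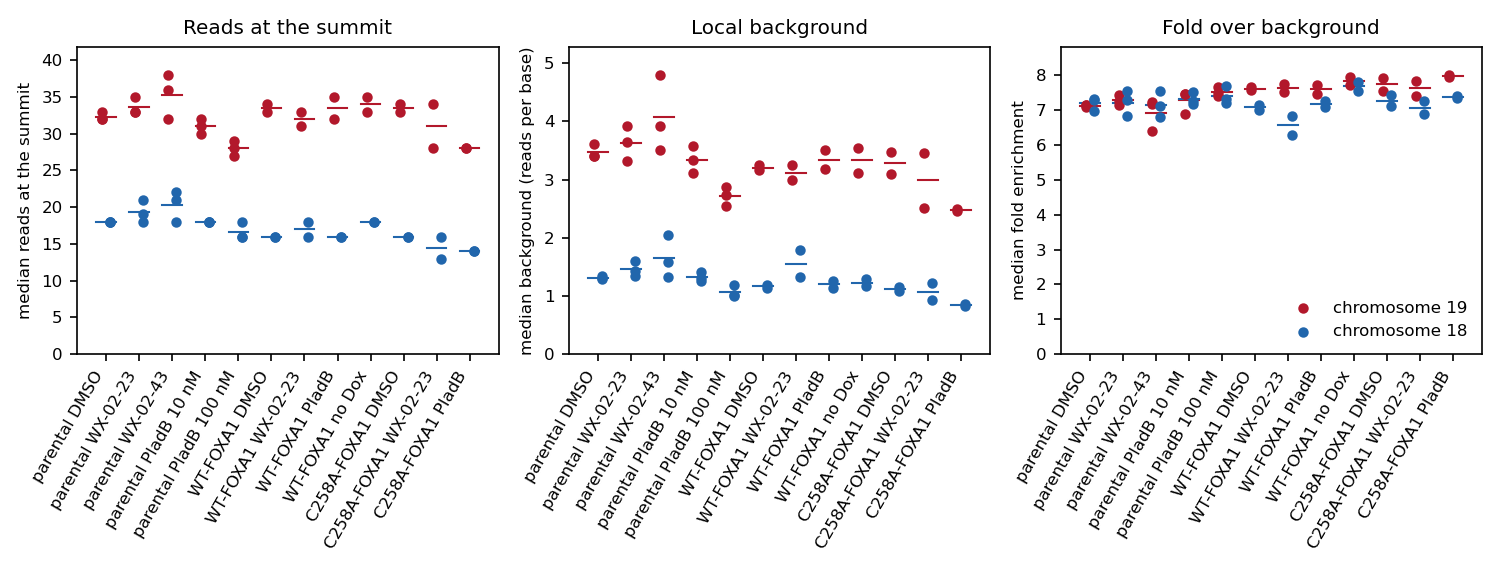
Median reads at the summit, median local background in reads per base, and median fold of peaks on chromosome 19 and chromosome 18, by group; each point is 1 library and each line a group mean. Summit reads (27 to 38 against 13 to 22) and background (2.46 to 4.80 against 0.825 to 2.06) separate the chromosomes in all 29 libraries, while the folds overlap.

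Within each class of holding, chromosome 18 regions had the higher fold rank. The median of the mean fold percentile was 71.8 on chromosome 19 and 75.4 on chromosome 18 among regions held by all 29, 22.6 and 29.9 among those held by 2 to 28, and 10.9 and 16.7 among those held by a single library. Chromosome 19 had the larger part of its regions in the first of these classes, the one of highest rank.

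The peak numbers on both chromosomes were then compared between treatments. In parental cells WX-02-23 lists held 3781, 3616 and 3751 peaks on chromosome 19 and 2168, 2087 and 2078 on chromosome 18, which overlapped the DMSO values on both. The log2 ratio of peaks on chromosome 19 to chromosome 18 was 0.82 ± 0.032 (SD, n = 3) with WX-02-23 and 0.84 ± 0.030 (SD, n = 3) with DMSO, and the exact two-sided permutation p was 0.4 (0.78 after Benjamini-Hochberg adjustment over 18 tests). With WX-02-43 the ratio was 0.85 ± 0.075 (SD, n = 3), and the exact permutation p against DMSO was 0.9 (adjusted 1). The stereoisomers, at the same dose and time, differed by -0.04 in this log2 ratio (WX-02-23 minus WX-02-43), with an exact permutation p of 0.7 (adjusted 0.9). Of the 3 against 3 tests none can go below 0.1.

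In parental cells PladB at 100 nM left fewer peaks on both chromosomes. The lists held 3502, 3538 and 3383 peaks on chromosome 19 and 1775, 1921 and 1853 on chromosome 18, and every one of them was below every DMSO list. The mean was 7.47% lower than with DMSO on chromosome 19, 11.6% lower on chromosome 18 and 10.3% lower over the genome. The log2 ratio was 0.91 ± 0.061 (SD, n = 3), with an exact permutation p of 0.2 against DMSO (adjusted 0.6). With lists cut to equal length the difference from DMSO had the opposite sign. Over all 3 lines together, with labels permuted within each line, the ratio was higher by 0.08 with PladB at 100 nM, with an exact permutation p of 0.0389 and an adjusted p of 0.483, so it did not pass. The genome-wide background, a relative measure of depth, was also lower in these parental libraries, with 0.705 ± 0.038 reads per base for PladB and 0.935 ± 0.062 for DMSO (SD, n = 3 each), and its part in the result was not tested. At 10 nM the lists held 3833, 3665 and 3531 peaks on chromosome 19 and 2196, 2011 and 1939 on chromosome 18, within or near the DMSO range, and the exact permutation p of the ratio was 1. In WT-FOXA1 cells lists with PladB at 100 nM overlapped those with DMSO, at 3086 and 3537 peaks on chromosome 19 and 1568 and 2046 on chromosome 18. In C258A-FOXA1 cells they lay below those with DMSO, at 3142 and 3169 on chromosome 19 and 1654 and 1732 on chromosome 18.

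In WT-FOXA1 cells with Dox, WX-02-23 lists were shorter on both chromosomes, and more so on chromosome 18. They held 2936 and 2868 peaks on chromosome 19 against 3560 and 3450 with DMSO, 17.2% fewer in the mean. On chromosome 18 they held 1503 and 1387 against 2029 and 1997, 28.2% fewer in the mean, and over the genome the mean was 24.5% lower. The genome-wide background was 0.903 and 1.26 reads per base in the WX-02-23 libraries and 0.869 and 0.844 with DMSO. In C258A-FOXA1 cells WX-02-23 lists held 3022 and 3402 peaks on chromosome 19 against 3368 and 3374, and 1729 and 2144 on chromosome 18 against 1838 and 1987, so groups overlapped on both. The change of the log2 ratio differed by 0.29 between the lines (WT-FOXA1 minus C258A-FOXA1), with an exact permutation p of 0.167 (adjusted 0.6), where 36 arrangements allow no p below 0.0556. Over the 3 lines the ratio differed by 0.03 between WX-02-23 and DMSO, with an exact permutation p of 0.531 (adjusted 0.846). With lists cut to equal length this difference had the opposite sign, and the part of list length was not tested.

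The Dox contrast was the largest of the 10 comparisons in this ratio. Without Dox, WT-FOXA1 lists held 3310 and 3279 peaks on chromosome 19 and 1480 and 1420 on chromosome 18. With Dox they held 3560 and 3450 on chromosome 19, 6.39% more in the mean, and 2029 and 1997 on chromosome 18, 38.8% more in the mean, and the groups did not overlap on either. Over the genome the mean was 26.4% higher with Dox. The log2 ratio was 0.80 ± 0.016 (SD, n = 2) with Dox and 1.18 ± 0.033 (SD, n = 2) without, a difference of -0.38. This difference was smaller with lists cut to equal length but kept its sign. The libraries without Dox had the highest ratios of all 29. The genome-wide background was 0.857 ± 0.018 reads per base with Dox and 0.766 ± 0.061 without (SD, n = 2), and its part in the result was not tested. No test was made, since the exact permutation test used here cannot reach a p of 0.05 with 2 against 2 libraries.

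None of 9 tests of the fold percentile difference between the chromosomes passed after adjustment. WX-02-23 against DMSO over the 3 lines gave a difference of 3.28 percentile points with an exact permutation p of 0.0806 (adjusted 0.483). In WT-FOXA1 cells chromosome 19 peaks ranked above chromosome 18 peaks by 10.6 and 14.8 points with WX-02-23 and by 6.36 and 5.73 points with DMSO. In C258A-FOXA1 cells the values were 10.3 and 3.31 with WX-02-23 and 4.87 and 5.22 with DMSO, which overlap. The difference between the lines was 4.84 points, with an exact permutation p of 0.611 (adjusted 0.846).

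Regions were next followed singly. A gained region is one that every treated library of a comparison held and no control library did, a lost region is the reverse, and percentages are of the regions held by any library of that comparison. Dox against no Dox gave the widest gap. Dox gained 161 regions on chromosome 19 (4.41%) and 406 on chromosome 18 (17.4%), where 13.2% of all regions tested in the genome were gained. Chromosome 19 had the lowest share of 24 chromosomes and chromosome 18 ranked at place 3. Among regions not held by all 29 libraries the shares were 9.76% and 24.9%, against 20.9% over the genome. Dox lost 33 regions on chromosome 19 (0.903%) and 15 on chromosome 18 (0.643%), against 1.1% over the genome, so that on both chromosomes fewer regions were lost than gained. With the 4 lists cut to equal length by p-value, 68 (2.01%) were gained on chromosome 19 and 206 (10.6%) on chromosome 18. Without WT-FOXA1 DMSO replicate 1, which loosens the rule, 268 (7.68%) and 587 (27.5%) were.

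The Dox-gained regions were looked up in libraries that had no part in calling them. In C258A-FOXA1 cells given Dox and DMSO, 61.5 ± 0.878% of the 161 chromosome 19 regions and 71.8 ± 4.01% of the 406 chromosome 18 regions had a peak (SD, n = 2), against 72.9 ± 1.87% of all 12964 gained regions. In parental DMSO libraries 30.8 ± 5.90% and 22.5 ± 1.68% had a peak (SD, n = 3), against 23.2 ± 1.72% of all. On both chromosomes the C258A-FOXA1 lists held more of these regions than did the parental lists, though these lines differ in processing folder as well.

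The gained regions of highest fold show the pattern by library. At chr18:30827444-30827907 (464 bp) the folds in WT-FOXA1 cells with Dox were 15.01 and 16.6 with DMSO, 10.6 and 8.42 with WX-02-23, and 15.3 and 13.3 with PladB. In C258A-FOXA1 cells they were 17.4 and 16.1 with DMSO, 14.9 and 13.2 with WX-02-23, and 12.4 and 17.9 with PladB. All 12 libraries with Dox held this region, and no parental library or library without Dox did. The choice of the region fixed this for WT-FOXA1 cells given DMSO with and without Dox, but not for the rest. At chr18:70030971-70031649 (679 bp) the same 12 libraries had folds of 11.5 to 16.5 and no other library had a peak.

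On chromosome 19 the leading gained regions were lower. At chr19:38573827-38574254 (428 bp) the folds were 10.6 and 13.4 in WT-FOXA1 cells with Dox and DMSO, 6.24 and 5.60 with WX-02-23, and 8.68 and 10.9 with PladB. C258A-FOXA1 cells had 5.93 and 7.13 with DMSO, 6.92 and 5.81 with WX-02-23, and a peak in 1 of 2 PladB libraries at 6.93. At chr19:33975222-33975783 (562 bp) the folds were 10.9 and 11.6 with Dox and DMSO in WT-FOXA1 cells, and 11 of the 12 libraries with Dox held the region. Neither had a peak in a parental library or without Dox.

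Gained regions were weaker than the regions held by both WT-FOXA1 libraries with Dox and DMSO. On chromosome 19 their median fold percentile was 28.1 with 13.5 reads at the summit, against 62.3 and 38 over the 2950 regions held by both. On chromosome 18 the values were 39.4 and 12.5, against 56.8 and 17.5 over 1593 regions. Median widths were 386 bp on chromosome 19 and 426.5 bp on chromosome 18, against 643 and 533 bp. The rule itself favours weak regions, since a strong one seldom lacks a peak in any group, so these values only describe the calls.

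**Figure D4:**
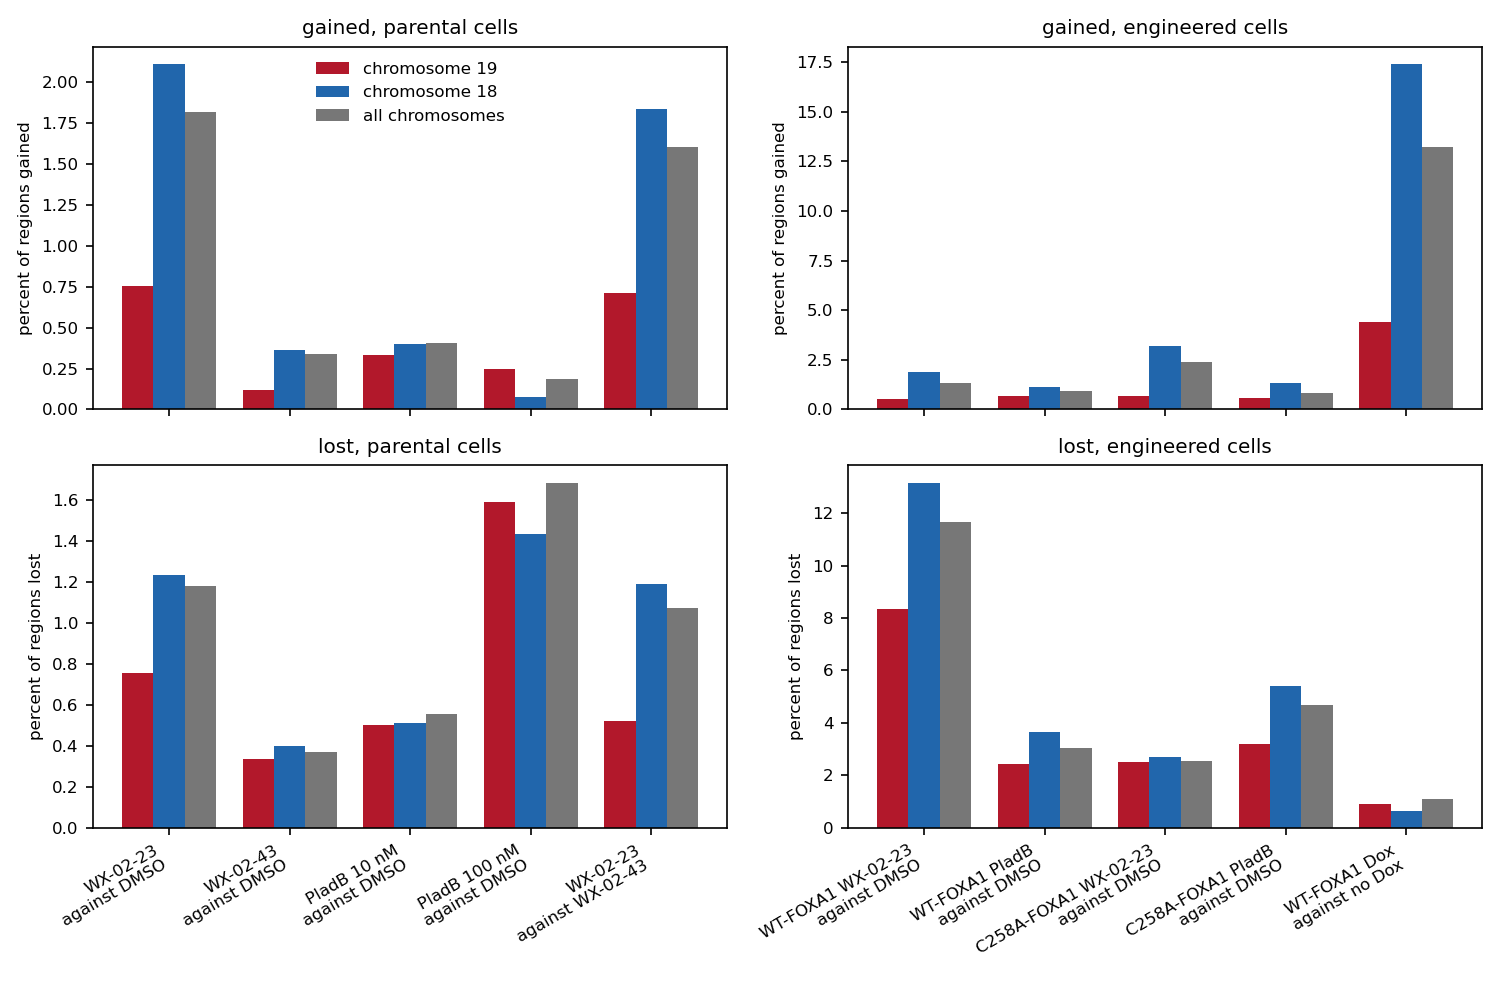
Percent of regions gained and lost on chromosome 19, on chromosome 18 and over all chromosomes, in each of the 10 comparisons; the vertical scale differs between panels. Dox-gained regions make up 4.41% of those tested on chromosome 19 and 17.4% on chromosome 18, and WX-02-23-lost regions of the WT-FOXA1 line 8.32% and 13.2%.

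WX-02-23 in WT-FOXA1 cells with Dox gave the next largest calls. It lost 296 regions on chromosome 19 (8.32%) and 310 on chromosome 18 (13.2%), against 11.7% over the genome, the lowest and the highest share of 24 chromosomes. This gap was absent among regions not held by all 29 libraries, where 19.1% on chromosome 19, 18.8% on chromosome 18 and 18.4% over the genome were lost. With lists of equal length the losses were 67 (2.18%) and 92 (5.00%), far fewer than with the full lists, and without WT-FOXA1 DMSO replicate 1 they were 455 (13.7%) and 514 (24.3%). WX-02-23 gained 18 regions on chromosome 19 (0.506%) and 45 on chromosome 18 (1.91%), against 1.31% over the genome. In C258A-FOXA1 cells the same compound lost 90 regions on chromosome 19 (2.52%) and 67 on chromosome 18 (2.70%), against 2.55%, and gained 25 (0.699%) and 79 (3.18%), against 2.37%.

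Regions held by both DMSO libraries of a line can be followed without the gain and loss rule. With WX-02-23 in WT-FOXA1 cells, 84.8 ± 0.575% of such regions on chromosome 19 and 72.2 ± 3.595% on chromosome 18 still had a peak (SD, n = 2), against 76.0 ± 3.00% over the genome. In C258A-FOXA1 cells 92.7 ± 3.56% and 88.7 ± 6.85% did, against 90.4 ± 5.64%. In parental cells, where 3 of 3 DMSO libraries had to hold the region, 96.3 ± 0.653% and 93.3 ± 1.67% kept a peak with WX-02-23, against 94.1 ± 0.868% over the genome, and 96.9 ± 1.90% and 94.9 ± 2.14% with WX-02-43, against 95.6 ± 2.55% (SD, n = 3). PladB at 100 nM left 93.2 ± 1.05% and 90.9 ± 1.07% in parental cells, against 91.01 ± 1.05% over the genome (SD, n = 3). It left 92.7 ± 4.34% and 86.8 ± 7.72% in WT-FOXA1 cells, against 89.2 ± 6.35%, and 92.2 ± 0.426% and 85.2 ± 1.39% in C258A-FOXA1 cells, against 87.3 ± 1.28% (SD, n = 2). In the means of these comparisons chromosome 19 lay above the genome and chromosome 18 below it. The kept share was higher on chromosome 19 in every treated library of all 10 comparisons. Regions held by all 29 libraries are kept by definition, which raises the kept share more on chromosome 19. In parental cells they were 2005 of the 2930 regions followed on chromosome 19 and 704 of the 1542 on chromosome 18. Kept shares without them were not analysed here, so these values do not show that variable regions were kept more often on chromosome 19.

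In parental cells the calls were fewer, but the rule there was stricter. A parental call needed 3 treated and 3 control libraries to go with it, and an engineered call 2 and 2. Shares of parental and engineered cells are therefore not alike in rule. WX-02-23 gained 32 regions on chromosome 19 (0.754%) and 60 on chromosome 18 (2.11%), against 1.82% over the genome, and lost 32 (0.754%) and 35 (1.23%), against 1.18%. Chromosome 19 had the lowest share of 24 chromosomes in both directions. WX-02-43 gained 5 regions on chromosome 19 (0.1195%) and 10 on chromosome 18 (0.363%), against 0.34% over the genome, and lost 14 (0.335%) and 11 (0.399%), against 0.369%. Set directly against WX-02-43, WX-02-23 gained 30 regions on chromosome 19 (0.712%) and 51 on chromosome 18 (1.83%), against 1.6% over the genome, and lost 22 (0.522%) and 33 (1.19%), against 1.07%. On each chromosome WX-02-23 thus had more calls than its stereoisomer, with the DMSO libraries shared between both comparisons. A gained region needs all 3 treated libraries, and WX-02-43 replicate 3 had a shorter list, with 83748 peaks against 96471 and 98079. Its part in the difference was not tested.

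A parental region called with WX-02-23 can be looked up in the WT-FOXA1 line, which shares no library with it. Of the parental lost regions, 6 of 32 on chromosome 19 (18.8%) and 12 of 35 on chromosome 18 (34.3%) were also lost there, against 311 of 1430 over the genome (21.7%). These are 2.03% of the 296 and 3.87% of the 310 lost regions of that line. Of the parental gained regions, 1 of 32 and 2 of 60 were also gained there, against 124 of 2202, which are 5.56% of the 18 and 4.44% of the 45 gained in that line. In WT-FOXA1 libraries with WX-02-23, 9.38% of the 32 parental lost regions on chromosome 19 and 2.86% of the 35 on chromosome 18 had a peak in each of the 2 libraries, against 5.80 ± 0.890% of all 1430. With DMSO in that line 45.3 ± 2.21% and 42.9% had one (SD, n = 2, with both chromosome 18 values equal), against 38.6 ± 2.32% of all.

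Named regions of this kind show the values behind the calls. At chr18:37004119-37004514 (396 bp) the folds were 11.8, 7.32 and 10.4 with WX-02-23 in parental cells and 4.73 and 6.65 in WT-FOXA1 cells. C258A-FOXA1 cells with WX-02-23 had folds of 6.68 and 5.22 at the same place. All 7 libraries given WX-02-23 held this region, and none of the other 22 did. The choice of the region fixed this for the WX-02-23 and DMSO libraries of parental and Dox-treated WT-FOXA1 cells, but not for the rest. At chr18:25864123-25864511 (389 bp) the 3 parental WX-02-23 folds were 8.49, 7.69 and 7.28, and the WX-02-43 libraries also had peaks there, at 5.09, 5.19 and 5.20. Summits of these regions were low, with 8 to 24 reads at the first and 8 to 17 at the second in the libraries with a peak.

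On chromosome 19, 1 region was gained in both lines, chr19:3999902-4000180 (279 bp), with 9 to 21 reads at its summit where held. Its folds were 9.02, 5.77 and 5.20 in parental cells with WX-02-23 and 5.87 and 5.32 in WT-FOXA1 cells with WX-02-23. It was not particular to the compound, since 1 WT-FOXA1 library with PladB (fold 4.20) and 1 without Dox (fold 4.88) also held it, as did 1 C258A-FOXA1 library with WX-02-23 (fold 5.14).

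Lost regions had modest folds to begin with. Summits of the 2 regions below held 10 to 29 and 8 to 21 reads in the libraries with a peak. At chr19:18809480-18810006 (527 bp) the folds were 7.24, 7.62 and 7.35 in parental DMSO libraries and 8.57 and 9.35 in WT-FOXA1 cells with Dox and DMSO. None of the 5 WX-02-23 libraries of these lines held it, and all 24 other libraries did, among them both C258A-FOXA1 libraries with WX-02-23, at 5.61 and 5.60. The choice of the region fixed this for those 5 and for the DMSO libraries just named, but not for the rest. WX-02-43 libraries had lower folds there than DMSO libraries, at 4.33, 4.81 and 3.68. At chr19:21915054-21915483 (430 bp) the parental DMSO folds were 5.32, 7.49 and 6.77, and both C258A-FOXA1 libraries with WX-02-23 again had a peak, at 7.89 and 7.30.

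At the third of these regions on chromosome 19, chr19:51558573-51558856 (284 bp), the parental DMSO folds were 5.85, 4.50 and 7.29, and the 1 C258A-FOXA1 library with a peak was given PladB (fold 6.30). On chromosome 18 the folds at chr18:24279817-24280107 (291 bp) were 6.95, 6.13 and 7.65 in parental DMSO libraries and 5.71 and 6.98 in WT-FOXA1 cells with Dox and DMSO. At chr18:51787104-51787478 (375 bp) the parental DMSO folds were 4.84, 8.47 and 7.20. No C258A-FOXA1 library held either region. At chr18:42369637-42370014 (378 bp) they were 7.44, 4.99 and 6.77, and 1 C258A-FOXA1 library held it, given PladB (fold 4.41). These 4 regions had no peak in the C258A-FOXA1 DMSO libraries, so a loss with WX-02-23 cannot be followed there. In the libraries with a peak their summits held 8 to 14, 11 to 18, 7 to 17 and 6 to 13 reads. The weakest called summit of a list on chromosome 19 had 5 to 9 reads and on chromosome 18 had 5 to 8. Absence of a peak therefore does not show closed chromatin here.

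PladB at 100 nM lost more regions than it gained on both chromosomes. In parental cells it lost 65 on chromosome 19 (1.59%) and 38 on chromosome 18 (1.43%), against 1.68% over the genome, and gained 10 (0.245%) and 2 (0.0754%), against 0.187%. This was the 1 comparison in which chromosome 19 had the higher share in both directions, but with 1 library allowed against the rule chromosome 19 was lower by 1.11 points in lost and by 0.709 in gained regions. In WT-FOXA1 cells it lost 89 (2.43%) and 89 (3.67%), against 3.05%, and gained 25 (0.683%) and 27 (1.11%), against 0.915%. In C258A-FOXA1 cells it lost 111 (3.19%) and 124 (5.42%), against 4.67%, and gained 20 (0.574%) and 30 (1.31%), against 0.806%. At 10 nM the parental counts were 21 (0.503%) and 14 (0.510%) lost, against 0.556%, and 14 (0.335%) and 11 (0.400%) gained, against 0.408%, so shares at 10 nM were near the genome share on both chromosomes.

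The leading regions lost with PladB at 100 nM were chr19:31047115-31047795 (681 bp), with parental DMSO folds of 9.73, 7.89 and 6.72, and chr18:61557494-61557951 (458 bp), with 7.76, 8.94 and 7.88. At 10 nM the chromosome 18 region kept folds of 7.47, 6.74 and 7.47 in 3 of 3 libraries. The chromosome 19 region kept a peak in 2 of 3, at 6.93 and 6.38. In all libraries with a peak, summits held 7 to 22 reads at the chromosome 19 region and 7 to 25 at the chromosome 18 region. Over all regions lost at 100 nM, 53.3 ± 16.3% on chromosome 19 and 52.6 ± 4.56% on chromosome 18 had a peak at 10 nM (SD, n = 3), near the 52.5 ± 8.97% of all 1902 regions lost.

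Across the 20 pairs of comparison and direction, chromosome 19 had the lower share in 17, namely in 9 of 10 gained and 8 of 10 lost. Comparisons of a line share its control libraries, so the pairs are not independent. Regions held by all 29 libraries can be neither gained nor lost, and they make up more of chromosome 19. Without them, chromosome 19 had the lower share in 8 of 10 gained but 3 of 10 lost. These counts give direction only. Some differences among the variable regions were small, such as 0.319 points lost with WX-02-23 and -0.0583 points gained with PladB in WT-FOXA1 cells. The constant regions were defined from the same libraries that made the calls, so no called region could be removed. Their part in the lower shares was not tested. For regions gained with Dox the gap among the variable regions was 15.1 percentage points.

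Among the regions not held by all 29 libraries, those gained with WX-02-23 in parental cells made up 1.43% on chromosome 19 and 2.81% on chromosome 18, against 2.58% over the genome. In WT-FOXA1 cells the gained shares with this compound were 1.16% and 2.72%, against 2.08%, and in C258A-FOXA1 cells 1.59% and 4.44%, against 3.64%. Against WX-02-43 as control they were 1.36% and 2.46%, against 2.28%. In all of these chromosome 19 lay below the genome and chromosome 18 above it. The lost shares with WX-02-23 were nearer to each other in parental cells, 1.43% and 1.64%, against 1.68%, and with WX-02-43 as control 0.995% and 1.59%, against 1.52%. In C258A-FOXA1 cells the order was the other way, with 5.73% lost on chromosome 19 and 3.77% on chromosome 18, against 3.91%. WX-02-43 against DMSO gave 0.230% and 0.488% gained, against 0.491%, and 0.643% and 0.537% lost, against 0.532%.

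With PladB the variable regions of chromosome 19 were lost at least as often as those of chromosome 18 in 3 of 4 comparisons. The lost shares at 100 nM were 3.12% and 1.95% in parental cells, against 2.47% over the genome, 5.37% and 5.16% in WT-FOXA1 cells, against 4.74%, and 7.51% and 7.82% in C258A-FOXA1 cells, against 7.42%. At 10 nM they were 0.968% and 0.685%, against 0.803%. The gained shares at 100 nM were 0.480% and 0.103% in parental cells, against 0.274%, 1.51% and 1.57% in WT-FOXA1 cells, against 1.42%, and 1.35% and 1.89% in C258A-FOXA1 cells, against 1.28%. At 10 nM 0.645% and 0.538% were gained, against 0.589%. Regions lost with Dox made up 2.001% of the variable regions on chromosome 19 and 0.920% on chromosome 18, against 1.74%.

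The gap in Dox-gained regions was present at like local density of regions. This division was chosen after the data were seen. In 1 Mb windows with fewer than 50 regions 6.45% of 217 regions on chromosome 19 and 19.3% of 611 on chromosome 18 were gained. In windows with 50 to 99 regions the shares were 5.48% of 1313 and 16.7% of 1645, and with 100 or more 3.53% of 2124 and 16.7% of 78. Over the genome the shares were 18.95%, 12.8% and 4.72%. Chromosome 19 was thus below chromosome 18 and below the genome in each class. The densest class was a single window on chromosome 18. Like density did not match the share of tested regions held by all 29 libraries, which cannot be gained. From sparse to dense this share was 47.0%, 55.7% and 55.2% on chromosome 19 and 23.2%, 32.6% and 32.1% on chromosome 18. For parental WX-02-23-gained regions the sparse windows gave 2.73% of 256 and 2.66% of 753, with no gap, and windows with 50 to 99 regions 0.690% of 1595 and 1.85% of 2000.

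Both chromosomes lay along a trend that runs over the genome. Across 24 chromosomes the percent of Dox-gained regions went with the percent of regions held by all 29 libraries at r = -0.83 (Spearman's rho -0.80), from 4.41% gained on chromosome 19 to 19.5% on chromosome 13. Without chromosomes 18, 19 and Y, r was -0.89 (rho -0.78) over 21. For regions lost with WX-02-23 in WT-FOXA1 cells r was -0.89 (rho -0.71), and for those gained with WX-02-23 in parental cells -0.76 (rho -0.80). Without chromosomes 18, 19 and Y these were -0.83 (rho -0.58) and -0.92 (rho -0.91). For regions lost with PladB at 100 nM in parental cells r was -0.14 (rho -0.25), and -0.23 (rho -0.34) without chromosomes 18, 19 and Y. These values describe 1 set of libraries, and chromosomes share their libraries and depth. Regions held by all 29 libraries raise the percent held and can be neither gained nor lost, so a negative r is in part built in. Such regions also enter the denominator of both percentages.

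**Figure D5:**
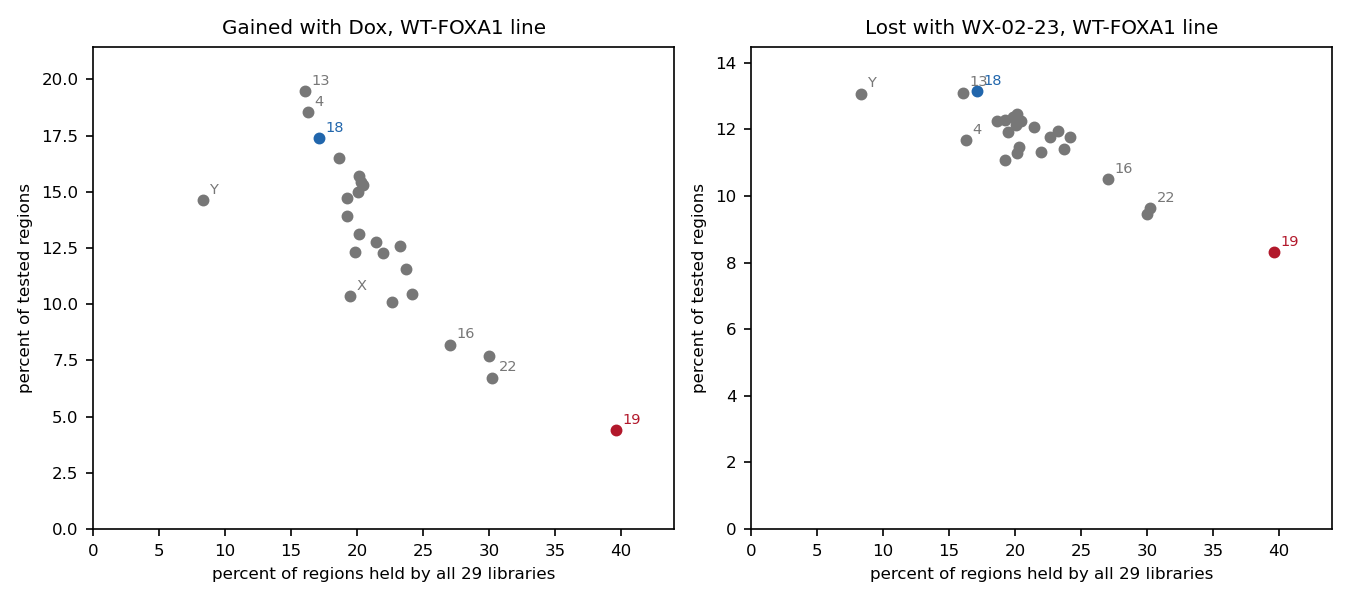
Percent of regions gained with Dox and percent lost with WX-02-23 in the WT-FOXA1 line, against the percent of regions held by all 29 libraries; each point is 1 of 24 chromosomes, of which some are named. Chromosome 19 lies at the far right and lowest (39.6% held by all, 4.41% gained, 8.32% lost), and chromosome 18 near the left and top (17.1%, 17.4% and 13.2%).

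Promoter sequences were looked at apart from the peaks, since they come from another genome build. RefSeq promoter windows of 300 bp on GRCh38.p14 were matched for 1185 genes on chromosome 19 and 234 on chromosome 18. Their median GC content was 63.0% and 65.3%, and the median number of CpG was 21 and 26, against 62.7% and 22 over 15842 promoters. TGTTTAC, a core of the forkhead motif that FOXA1 binds, was searched on both strands (its reverse complement is GTAAACA). It was found in 10 windows on chromosome 19 (0.844%) and 4 on chromosome 18 (1.71%), against 2.61% of all promoters. Promoters of the gene-poor chromosome were therefore no poorer in GC than those of the gene-rich one. A match describes letters and not a bound site, and which promoters were open was not analysed here.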

How the data were processed

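Per the labels' protocols, ATAC-seq libraries were prepared from a kit. Per the submitters' processing notes, Bowtie2 and MACS2 were run on hg19. No version, option, treatment of duplicates or read shift is given in the sources used here. The authors deposited 1 MACS2 peak list per library, with a score, a fold (ratio) over local background, a −log10 p-value, a −log10 q-value and the summit distance per peak. Lists held 62832 to 98193 peaks, none narrower than 150 bp, with −log10 q of at least 2.00053. Read totals were not given. The deposited fold is (summit reads + 1) over (background + 1) and the p-value follows a Poisson law, so whole summit reads and the background were recovered for 100% of peaks (tolerance 0.001 in −log10 p). The genome-wide background served as relative depth, 0.546 to 1.502 reads per base.

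Groups came from the labels. Only the autosomes, X and Y were kept when peaks were merged, a library held a region by at least 1 bp, and percentiles were taken within a list. Groups were compared on per-library values in exact two-sided permutation tests (20, 720 or 36 arrangements) with Benjamini-Hochberg adjustment over 18 tests at 0.05. Named regions were, per chromosome, the 2 widest and the 2 of highest fold percentile held by all 29 libraries, the leading regions changed by WX-02-23 in both parental and WT-FOXA1 cells, the leading Dox and PladB regions, and the densest window and longest empty stretches. The regions, comparisons and rules were chosen with earlier results of these data known. As alternatives, peaks were limited to a q-value of 1e-05 or below or a fold of at least 6, lists were cut to equal length, 50% of a region had to be covered, 1 library could go against the rule, ranks were taken by p-value, a replicate block was used, regions came from parental or engineered libraries alone, and each library was left out in turn. Region sequences, gene positions and chromosome copy number were not analysed here, since hg19 sequence and gene models were not used. Counting was tested on simulated data. With 3 against 3 libraries and a detection of 0.9 per library, the gain and loss rule recovered 74% of 400 changed regions. Each library detected a region independently there, so this share follows from the setting. The rule was not simulated for 2 against 2 libraries, for weak regions or for unlike backgrounds, so the share is not a sensitivity of the calls above. Tests used scipy 1.17.1, tables pandas 2.3.3 and numpy 2.4.6, and plots matplotlib 3.10.9, in Python 3.11.15.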

Additional observations from a re-analysis of the deposited data

Results flagged for a closer look

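The change with PladB in the fold rank of chromosome 19 peaks against chromosome 18 peaks differed in sign between the engineered lines. In WT-FOXA1 cells the percentile difference was 3.98 and 4.60 with PladB, both below the DMSO values of 6.36 and 5.73. In C258A-FOXA1 cells it was 7.36 and 6.55 with PladB, both above the DMSO values of 4.87 and 5.22. The difference of the changes, WT-FOXA1 minus C258A-FOXA1, was -3.67 percentile points. Its exact two-sided permutation p was 0.0556, the smallest that 36 arrangements allow, and 0.483 after Benjamini-Hochberg adjustment over 18 tests, so it did not pass. The C258A-FOXA1 libraries with PladB also had the lowest genome-wide background of all groups, at 0.567 ± 0.029 reads per base (SD, n = 2), and its part in the result was not tested. No group held the 4 libraries needed to look for a library apart from its group.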

How the results depend on the processing

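Of 603 alternative values, 73 had a sign opposite to the main value: 38 of these were percentages gained or lost, 35 of them for a difference whose 95% counting interval held 0, and 35 were other values. That interval counts regions as if they were independent, although they share libraries, so it does not measure the spread between libraries. None of 229 alternative tests had an adjusted p under 0.05 (the smallest was 0.05, for PladB at 100 nM over 3 lines ranked by p-value), and 15 had an unadjusted p under 0.05. The density ratio of merged regions (1.63) was 1.87 with lists of equal length and 1.91 with parental libraries only. The width ratio (1.23) was 1.28 with a q-value of 1e-05 or below, 1.39 with a fold of at least 6, 1.30 with lists of equal length and 1.27 with parental libraries only. The difference in the share held by all libraries (22.5 points) was 24.8 with lists of equal length, 17.2 with the 15 parental and 26.7 with the 14 engineered libraries only. The fold percentile difference (2.77) reversed to -2.47 with lists of equal length and to -0.446 with parental libraries only, so its direction depends on both. Direction was kept for density, width and share held under every alternative run.

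The log2 ratio of peaks reversed for WX-02-43 to -0.0153 with a q-value of 1e-05 or below, -0.0586 with a fold of at least 6 and -0.0673 with lists of equal length. The difference of PladB changes between the engineered lines reversed to -0.0225, -0.123 and -0.0228 under the same settings. WX-02-23 against WX-02-43 reversed to 0.00048 with a fold of at least 6 and 0.00405 with lists of equal length. Lists of equal length also reversed PladB at 10 nM to -0.00414, PladB at 100 nM to -0.0103 and WX-02-23 over 3 lines to -0.046. The Dox difference (-0.38) was -0.285 with a fold of at least 6 and -0.219 with lists of equal length. Fold percentile differences reversed for PladB at 10 nM to 0.854 (q-value), 0.414 (fold) and 0.781 (equal length), for WX-02-43 to 0.221 (fold) and 1.02 (equal length), and for PladB at 100 nM over 3 lines to -0.0600 (fold). The Dox value (4.33) was 2.70 with lists of equal length. Ranking by p-value reversed WX-02-23 to -0.648, PladB at 100 nM to -1.84, and PladB at 100 nM over 3 lines to -1.27. None of these tests had passed before.

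Differences in percent gained or lost, chromosome 19 minus chromosome 18, moved most when 1 library could break the rule. Gained and lost then differed by -3.10 and -2.22 for parental WX-02-23, -1.40 and -1.44 for WX-02-43, -1.19 and -0.565 for PladB at 10 nM, -0.709 and -1.11 for PladB at 100 nM (both with changed sign), and -3.16 and -2.60 for WX-02-23 against WX-02-43. In WT-FOXA1 cells they were -5.14 and -15.2 for WX-02-23, -5.82 and -10.3 for PladB, and -23.3 and -1.24 for Dox, the last with changed sign. In C258A-FOXA1 cells they were -11.3 and -4.19 for WX-02-23 and -5.00 and -10.1 for PladB. With a fold of at least 6 they were 0.243 (changed sign) and -0.642 for PladB at 10 nM and -0.218 and -7.63 for WX-02-23 in WT-FOXA1 cells, the gained difference was -1.23 for WX-02-23 in C258A-FOXA1 cells and -9.97 for Dox, and that for PladB in C258A-FOXA1 cells reversed to 0.225. Lists of equal length gave -3.06 and -2.82 for WX-02-23 in WT-FOXA1 cells and -8.56 for Dox-gained regions. Requiring 50% of a region gave -3.19 for regions lost in WT-FOXA1 and 1.22, with changed sign, for those lost in C258A-FOXA1 cells with WX-02-23, and the q-value gave -1.63 for those gained in the latter. Among regions not held by all 29 libraries, an alternative chosen after seeing the data, the lost difference changed sign to 0.319 for WX-02-23 and 0.206 for PladB in WT-FOXA1 cells and to 1.97 (from -0.181) for WX-02-23 in C258A-FOXA1 cells. It was 1.17 for PladB at 100 nM, -0.313 for PladB in C258A-FOXA1 cells and 1.08 for Dox, and the gained difference with Dox was -15.1. The causes were not tested.

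Leaving out 1 library at a time gave log2 ratios of -0.031 to 0.0436 for WX-02-43, -0.0111 to 0.0218 for PladB at 10 nM, -0.0714 to 0.00327 for WX-02-23 against WX-02-43 and -0.0901 to 0.097 for PladB between the engineered lines, and fold percentile differences of -1.595 to 1.6003 for PladB at 10 nM. Gained differences without a library were -2.07 to -1.32 for parental WX-02-23, -0.814 to -0.207 for WX-02-43, -0.61 to -0.101 for PladB at 10 nM, -0.326 to 0.244 for PladB at 100 nM and -1.83 to -1.20 for WX-02-23 against WX-02-43. They were -3.24 to -1.98 for WX-02-23, -3.64 to -1.02 for PladB and -19.8 to -13.8 for Dox in WT-FOXA1 cells, and -7.91 to -3.25 and -3.00 to -0.731 for WX-02-23 and PladB in C258A-FOXA1 cells. Lost differences were -1.12 to -0.455 for parental WX-02-23, -0.551 to -0.0523 for WX-02-43, -1.48 to -0.713 for WX-02-23 against WX-02-43, -10.6 to -5.17, -4.94 to -1.67 and -0.659 to 0.255 for WX-02-23, PladB and Dox in WT-FOXA1 cells, and -2.83 to -0.00358 and -7.31 to -3.30 for WX-02-23 and PladB in C258A-FOXA1 cells. Ranges that span 0 include a change of sign. Fewer libraries make the rule looser by construction.

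Same-numbered libraries did not deviate together (correlations of -0.0212 to 0.0617), so the numbers do not pair them. A replicate block left the differences as they were, for example -0.0278 for parental WX-02-23 in the log2 ratio of peaks, and its smallest adjusted exact permutation p was 0.281. Depth limits both chromosomes: a region whose summit stays under 5 reads was not detectable, and absence of a peak does not show closed chromatin.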

Other observations

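Regions lost with WX-02-23 in WT-FOXA1 cells were looked up in other libraries. On chromosome 19, 60.6 ± 1.67% of the 296 regions had a peak in WT-FOXA1 cells without Dox (SD, n = 2), and on chromosome 18, 45.2 ± 1.82% of the 310 did, against 47.8 ± 2.47% of all 11370 lost regions. In parental DMSO libraries 65.1 ± 4.78% and 61.2 ± 3.63% had a peak (SD, n = 3), against 63.2 ± 2.14% of all, and in parental WX-02-23 libraries 61.8 ± 3.38% and 53.7 ± 2.10% did, against 58.0 ± 1.98%. In C258A-FOXA1 cells the shares were 61.1 ± 2.87% and 60.2 ± 4.79% with DMSO, against 65.8 ± 2.71% of all, and 43.4 ± 13.1% and 55.0 ± 14.4% with WX-02-23, against 54.6 ± 14.6% (SD, n = 2).

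The regions lost with Dox were few and weak. The leading ones, chr19:43837278-43837707 and chr18:39694335-39694659, had folds of 6.63 and 7.54, and 8.29 and 6.96, in the WT-FOXA1 libraries without Dox. Each was held by 20 of 29 libraries, among them both C258A-FOXA1 libraries with Dox and DMSO, at 6.37 and 6.43 on chromosome 19 and 8.001 and 6.97 on chromosome 18.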
